A study of Mus musculus with 10 samples.

Results

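The autophagy machinery genes are 40 mouse genes that encode the proteins that start, build, load and close the autophagosome. They were set as a list of gene symbols and not by a filter on measured values, but earlier results of these data were known by then. The symbols were matched through NCBI gene IDs to 40 of the 18055 genes listed in any library. All 40 were listed in every library and all 40 passed the filter on low counts, so no member was lost. RNA was sequenced from primary hepatocytes, the parenchymal cells of the liver, taken from wild-type mice of the C57BL/6 strain. The labels give DMEM with FBS as the medium, and the methods add that the cells, apart from those of siRNA experiments, were moved to DMEM without serum before NTP and the FFA were added. Serum withdrawal, itself a known trigger of autophagy, is in that case common to all 5 groups. The 5 groups held 2 libraries each and were Vehicle (neither free fatty acid nor drug), PA (200 μM palmitate, a saturated free fatty acid, FFA), LA (12 μM linoleate, an unsaturated FFA), PA+NTP and LA+NTP. NTP is Neurotropin, a drug given against chronic pain, and in the last 2 groups it was added 1 h before the FFA, which then stayed on the cells for 24 h in all 4 FFA groups. No group received NTP without an FFA, so each NTP contrast is measured on top of an FFA. The sources used here do not give the age of the mice or say whether the replicates of a group came from separate mice or cultures, so p-values measure only the spread between these libraries.

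In autophagy a double membrane grows around cytoplasm, closes, and fuses with the lysosome, where its content is digested. The ULK kinase complex starts the process when mTORC1 is low or AMPK is active, the class III PI3-kinase complex marks the growing membrane with PI3P, ATG9 and ATG2 supply lipid, and ubiquitin-like conjugation systems attach ATG8 proteins (LC3 and GABARAP) to it. Cargo receptors such as p62 bind ATG8 proteins and ubiquitinated cargo and are digested with it. In hepatocytes this route degrades lipid droplets (lipophagy) and mitochondria (mitophagy). Many of these proteins are controlled by phosphorylation, lipidation and turnover, none of which mRNA levels record.

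The libraries held from 13142588 expected counts (PA replicate 1) to 60046937 (LA+NTP replicate 2), an expected count being the estimated number of reads of a gene. The members were well covered, from 66.03 counts for Atg10 in the shallowest library to 131962 for Sqstm1. Their levels ran from 1.68 to 1690 FPKM, a unit scaled for gene length and library size. The 7 hepatocyte markers (Alb, Ttr, Apoa1, Serpina1a, Tat, Cps1 and Hnf4a) were listed in all libraries and summed to between 2298 and 4174 FPKM. The 6 markers of Kupffer cells or macrophages summed to 124 to 295 FPKM, the 4 of cholangiocytes to 406 to 704, the 5 of endothelial cells to 15.6 to 21.9 and the 5 of stellate cells to 3.45 to 6.36. Nearly all of the macrophage sum was Cd68 (122 to 287 FPKM), and the next marker, Marco, reached 4.59. Likewise, nearly all of the cholangiocyte sum was Spp1 (398 to 691 FPKM), and the next marker, Sox9, reached 13.5. No marker of any of these lists was at 0 in all libraries, so the cultures were not free of RNA from such genes.

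Promoter windows, running from 250 bases before to 50 bases after the annotated start, were available for 34 of the 40 members from RefSeq (GRCm38.p6). The 4 printed here belong to 2 members that were lower with both FFAs, the kinase gene Ulk1 (chr5:110810032-110810331, minus strand) and the lipid scramblase gene Atg9a (chr1:75191961-75192260, minus strand), and to 2 that were lower with NTP under both FFAs, the E2-like enzyme gene Atg3 (chr16:45158579-45158878, plus strand) and the ATG8 gene Gabarapl2 (chr8:111940453-111940752, plus strand). They are shown so that the genes that moved in opposite directions can be read side by side. Capitals mark the E-box CACGTG, the core of the element read by TFEB and TFE3, the transcription factors of the lysosome and autophagy program.
Ulk1: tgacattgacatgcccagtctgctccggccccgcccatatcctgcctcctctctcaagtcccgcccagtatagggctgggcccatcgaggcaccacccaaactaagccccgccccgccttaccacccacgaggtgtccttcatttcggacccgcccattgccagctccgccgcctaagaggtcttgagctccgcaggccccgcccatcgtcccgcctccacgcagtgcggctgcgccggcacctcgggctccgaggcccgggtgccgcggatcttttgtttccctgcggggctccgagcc
Atg9a: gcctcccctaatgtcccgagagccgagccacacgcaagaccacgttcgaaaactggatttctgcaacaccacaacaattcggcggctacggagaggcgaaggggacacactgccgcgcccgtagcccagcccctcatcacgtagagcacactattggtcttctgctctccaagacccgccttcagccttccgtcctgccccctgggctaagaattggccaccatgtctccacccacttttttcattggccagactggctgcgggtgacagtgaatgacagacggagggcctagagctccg
Atg3: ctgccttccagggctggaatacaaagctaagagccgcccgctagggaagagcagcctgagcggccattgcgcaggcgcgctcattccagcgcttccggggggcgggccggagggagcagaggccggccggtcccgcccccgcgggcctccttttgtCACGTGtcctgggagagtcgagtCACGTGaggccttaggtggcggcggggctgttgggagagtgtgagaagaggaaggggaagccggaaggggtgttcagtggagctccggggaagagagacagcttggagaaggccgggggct
Gabarapl2: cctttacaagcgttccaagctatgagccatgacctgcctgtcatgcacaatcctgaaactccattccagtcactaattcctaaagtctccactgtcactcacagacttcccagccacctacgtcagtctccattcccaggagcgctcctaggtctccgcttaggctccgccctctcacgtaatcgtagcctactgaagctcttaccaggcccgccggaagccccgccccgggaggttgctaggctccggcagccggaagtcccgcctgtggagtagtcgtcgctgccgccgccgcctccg
The Atg3 window held 2 E-boxes and the other 3 windows held none. Among all members with a window, 5 of 34 (14.7%) held the E-box on either strand, namely Atg14, Rubcn, Atg3, Atg5 and Atg7, against 8.09% of 27025 genes with a window. The longer element TCACGTGA, which contains the E-box, occurred in Atg3 alone among the 34 and in 1.12% of all genes. Neither the forkhead motif GTAAACA (4.05% of all genes) nor the ATF4 element TGATGNAA (4.51%) was found in a member's window. GC content of the printed windows lay between 59.3% for Atg9a and 68.0% for Ulk1.

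Expression of the machinery moved in both directions at once. With PA, Ulk1, Atg9a and Atg2a were downregulated and Atg3 was upregulated, and with LA, Ulk1 and Atg9a were downregulated. NTP was associated with the opposite directions, with Ulk1, Atg9a and Atg2a upregulated under both FFAs and Atg3, Atg10, Gabarapl2, Optn and Tax1bp1 downregulated under both. Rb1cc1 and Atg4c were downregulated by this rule in LA+NTP only, and the difference between the NTP effects was not called for either. A gene was called at an adjusted p under 0.05 (edgeR's quasi-likelihood test over all 10 libraries, Benjamini-Hochberg over 14097 genes) and a fold change of at least 1.5. Of the 24 calls made in these 4 contrasts, 5 remained once a trend on GC content was removed (Optn in both NTP contrasts and Atg3, Atg10 and Gabarapl2 with NTP under PA). By the NOISeq rule of the study's methods, rebuilt here on FPKM at a probability of 0.95, 0 passed. The share of all genes passing that rule is not given here, so this count cannot be read as a result about the members. In these bulk samples, fewer cells of a type and less RNA per cell cannot be told apart.

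**Figure D1:**
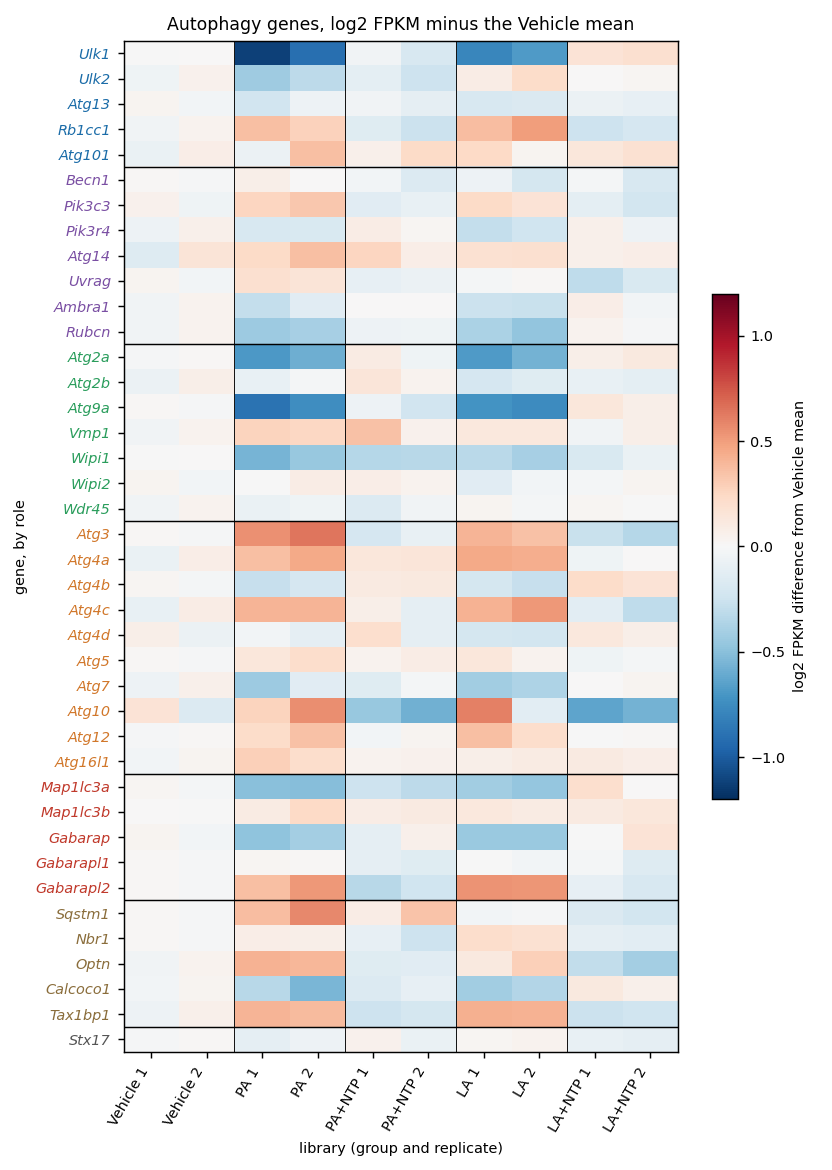
Heat map of the 40 autophagy genes (rows, grouped by role and colored by it) in the 10 libraries (columns), as log2 FPKM minus the mean of the 2 Vehicle libraries, with red above and blue below Vehicle. The PA and LA columns share dark blue cells for Ulk1, Atg2a and Atg9a and red cells for Atg3, Gabarapl2 and Tax1bp1, while the columns with NTP are pale or of the opposite color.

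In PA against Vehicle, 1 of 40 members was called higher and 3 lower, beside 6.0% and 8.92% of all genes tested. In LA against Vehicle, 0 were called higher and 2 lower, beside 3.53% and 7.11%. At an unadjusted p under 0.05, 26 of the 40 members differed with LA in either direction, beside 48.8% of all genes, and DESeq2 also called 0 higher. With PA, 29 of the 40 did, beside 52.0% of all genes. The counts called with the FFAs thus lie near or below the shares of all genes, while those at unadjusted p lie above them. In PA+NTP against PA, 3 were called higher and 5 lower, beside 8.74% and 5.11%, and in LA+NTP against LA, 3 were called higher and 7 lower, beside 11.7% and 7.57%. At adjusted p alone, with no fold threshold, 16 members were higher and 12 lower with PA (23.5% and 22.0% of all genes) and 11 higher and 12 lower with LA (20.8% and 20.5%). The corresponding counts with NTP were 8 higher and 16 lower under PA (21.7% and 23.0%) and 13 higher and 15 lower under LA (25.9% and 25.6%). Most of the machinery therefore moved by less than 1.5-fold, and the median log2 fold change over the 40 members was 0.07 with PA, 0.05 with LA, -0.11 with NTP under PA and -0.03 with NTP under LA. The medians of all genes in the same order were -0.01, -0.01, 0.01 and 0.01. Under library-size scaling the median of the members with NTP under LA was 0.01, so its sign is not settled. Each NTP contrast shares the libraries of its FFA with the contrast of that FFA with Vehicle, so opposite signs between them are not independent.

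**Figure D2:**
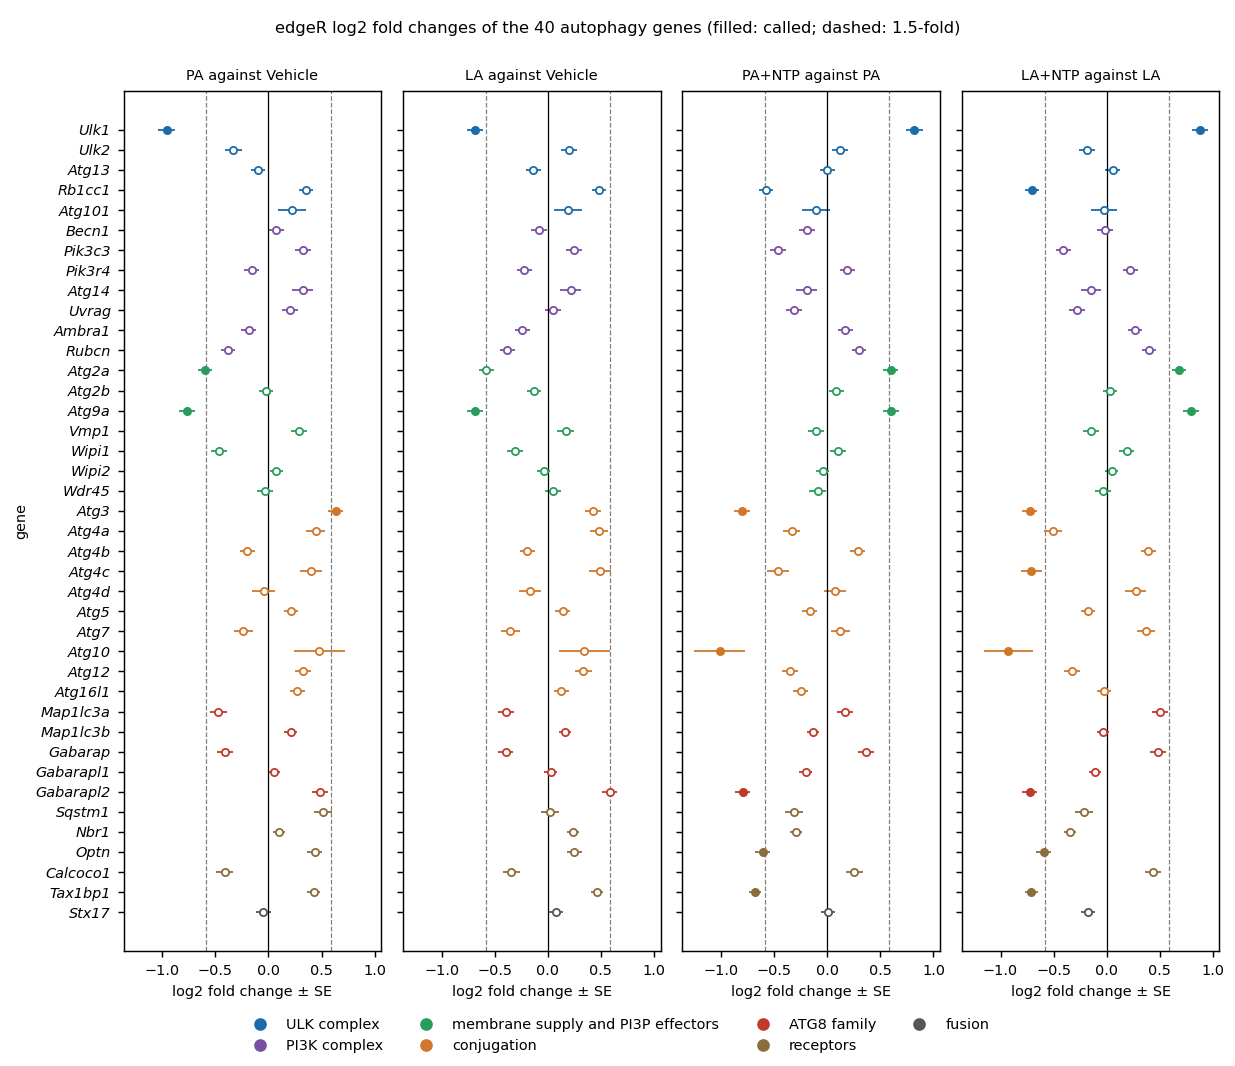
Log2 fold change (x axis, with its SE) of each of the 40 autophagy genes (y axis, colored by role) in 4 contrasts. Filled points were called and the dashed lines mark 1.5-fold. Filled points sit at Ulk1, Atg2a and Atg9a on the left of 0 with PA and on the right with NTP, and at Atg3, Atg10, Gabarapl2, Optn and Tax1bp1 on the left with NTP.

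The direction of a member followed the GC content of its transcripts. Spearman's rho between GC content and log2 fold change over the 40 members was -0.65 with PA, -0.78 with LA, 0.70 with NTP under PA and 0.79 with NTP under LA. Over 13925 genes the values were -0.52, -0.64, 0.58 and 0.68. Genes are not independent replicates, and the points share their libraries. Of the 20 members with the lower GC content, 16 had a fold change above 1 with PA and 17 with LA, against 6 and 6 of the 20 with the higher GC content. With NTP the counts were 4 and 2 of the 20 with lower GC content against 12 and 14 of the 20 with higher. The trend was present in each library and not only in the group means. The rho between GC content and the deviation of the members from their mean over the 10 libraries was between -0.77 and -0.61 in the PA and LA libraries and between 0.51 and 0.76 in all others. Within the design, a treatment effect on GC-rich genes and a bias of the libraries toward GC content cannot be told apart. The fits were therefore repeated with the GC trend taken out of every library (a smooth curve of counts on GC content). After this step 5 of the 24 called results of members remained called and none changed sign. Calls then stood at 2 higher and 0 lower with PA, 1 and 0 with LA, 0 and 4 with NTP under PA and 0 and 1 with NTP under LA, beside 3.82% and 4.66%, 1.04% and 2.22%, 3.49% and 2.67%, and 3.28% and 2.49% of all genes.

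**Figure D3:**
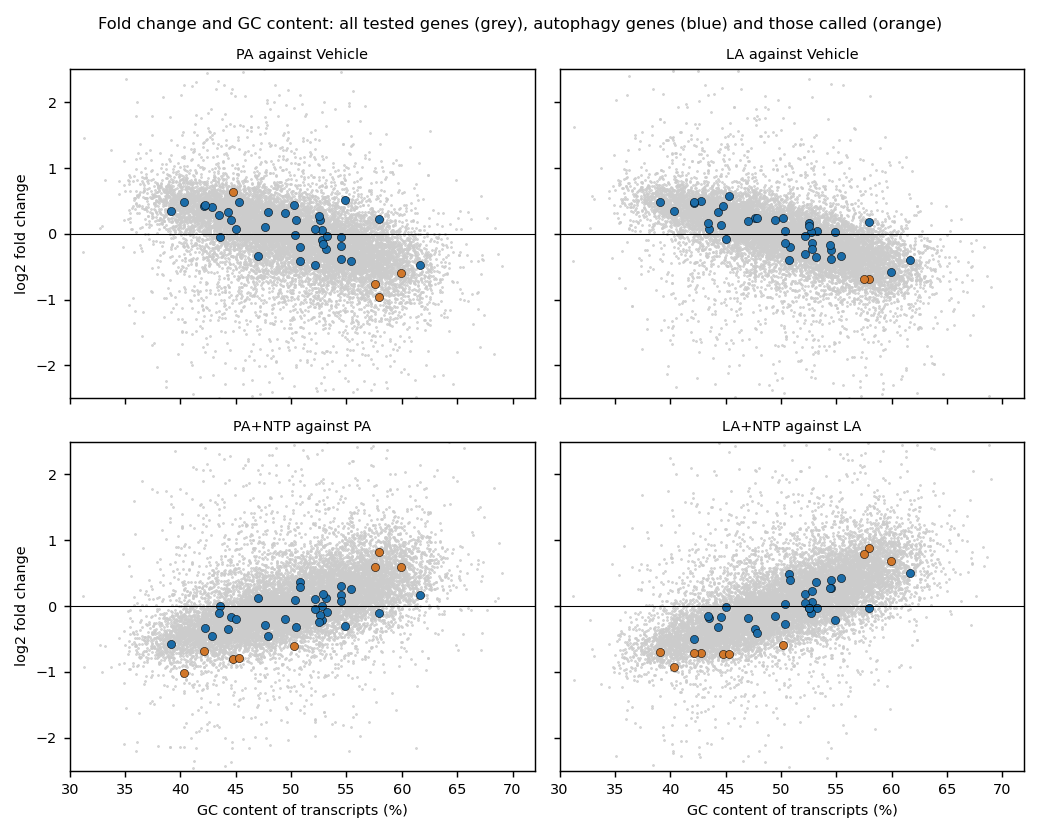
Log2 fold change (y axis) against the GC content of the transcripts in percent (x axis) in 4 contrasts, for all tested genes (grey), the autophagy genes (blue) and the autophagy genes called (orange), with genes beyond 2.5 on the y axis not drawn. The cloud falls from left to right with PA and LA and rises with NTP. The orange points lie within its range of GC content, with Optn near the middle of that range.

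With the GC trend removed, more members were lower than higher with NTP at adjusted p alone. In that fit, 5 members were higher and 16 lower in PA+NTP than in PA, beside 10.3% and 17.0% of all genes. In LA+NTP against LA, 5 were higher and 15 lower, beside 11.1% and 16.6%. The members' medians were -0.17 and -0.12, and those of all genes -0.04 and -0.04. With the FFAs against Vehicle, 12 were higher and 6 lower with PA (18.9% and 12.6%), and 5 higher and 4 lower with LA (9.62% and 7.68%). Those lower with NTP included 4 of 5 cargo receptors and 4 of 5 ATG8 genes under PA, and the same numbers under LA.

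**Figure D4:**
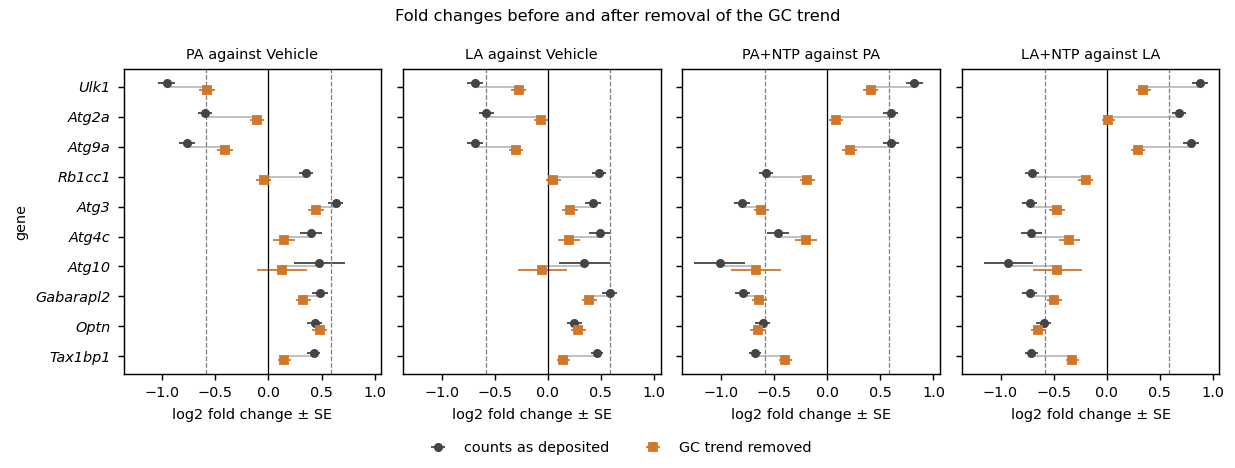
Log2 fold changes (x axis, with their SE) of the 10 autophagy genes called in at least 1 of 4 contrasts (y axis), from the counts as deposited (grey circles) and after removal of the GC trend (orange squares), with dashed lines at 1.5-fold. Ulk1, Atg2a, Atg9a and Rb1cc1 move toward 0, and Optn stays near -0.6 in both NTP contrasts.

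Of the ULK complex, Ulk1, the kinase that AMPK and mTORC1 phosphorylate to turn initiation on or off, changed most. Its FPKM was 13.5 and 13.6 in the Vehicle libraries, 6.22 and 7.24 in PA, 13.2 and 11.8 in PA+NTP, 7.86 and 8.43 in LA, and 15.2 and 15.5 in LA+NTP. Both PA and both LA libraries were below every other library. The log2 fold change was -0.96 ± 0.08 (SE) with PA, 1.94-fold lower (adjusted p = 9.71e-07), and -0.69 ± 0.08 with LA, 1.61-fold lower (adjusted p = 1.5e-05). With NTP it was 0.82 ± 0.08 under PA (adjusted p = 3.01e-06) and 0.87 ± 0.08 under LA (adjusted p = 7.02e-07). These calls held without any single library. After GC removal the values were -0.58, -0.28, 0.41 and 0.34, all at an adjusted p under 0.05 and all short of 1.5-fold. Its paralog Ulk2 gave 6.61 and 7.06 FPKM in Vehicle, 5.09 and 5.49 in PA, and 7.27 and 7.98 in LA. The PA libraries were thus the lowest and the LA libraries the highest of the 6, and neither contrast with Vehicle was called (log2 -0.33 with PA, adjusted p = 0.0037, and 0.20 with LA, adjusted p = 0.052). Rb1cc1 encodes FIP200, the scaffold of the complex. Its FPKM was 14.8 and 15.6 in Vehicle, 19.5 and 18.4 in PA, 13.7 and 12.7 in PA+NTP, 19.6 and 21.5 in LA, and 12.7 and 13.2 in LA+NTP. Both NTP groups lay below Vehicle and both FFA groups above it, a pattern opposite to that of Ulk1. Rb1cc1 was called with NTP under LA (-0.70 ± 0.07, adjusted p = 1.21e-06), while its value under PA, -0.58, was 1.49-fold. After GC removal these were -0.20 and -0.19, and neither had an adjusted p under 0.05. The adaptor gene Atg13 was not called, with 15.6 to 18.6 FPKM in all libraries. Atg101, which encodes the partner of ATG13, was called only after GC removal, at 0.60 with PA and 0.60 with LA, where the deposited counts gave 0.22 and 0.19 and the groups overlapped.

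**Figure D5:**
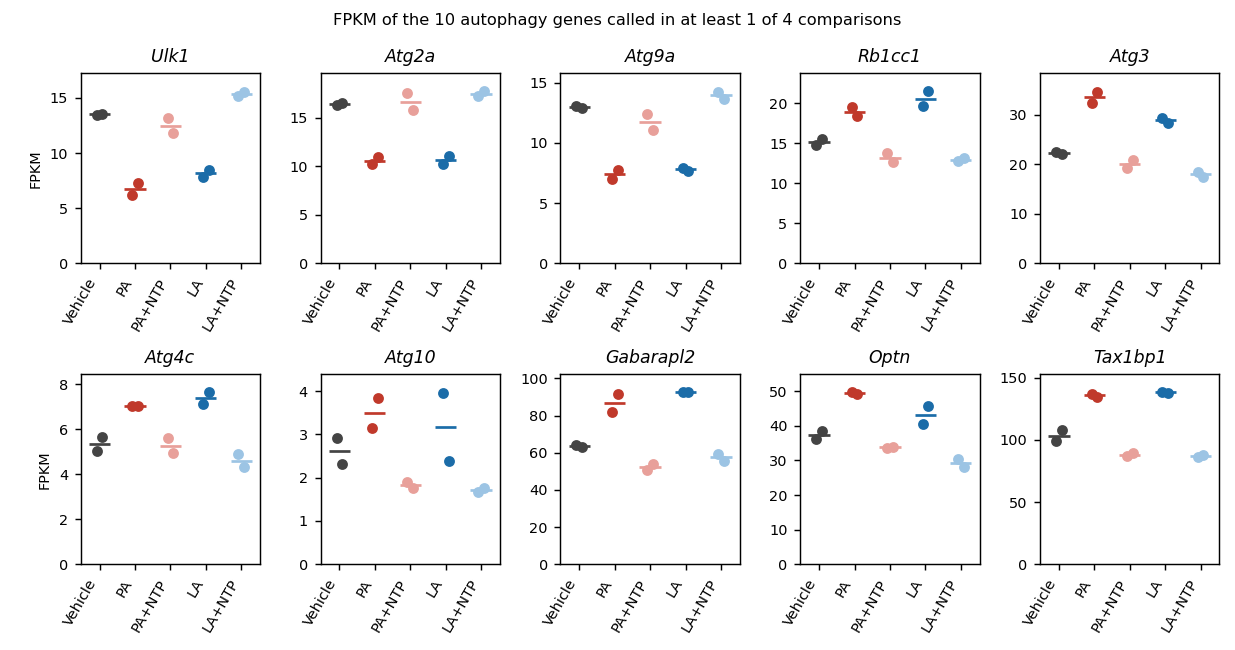
FPKM (y axis, from 0) of the 10 autophagy genes called in at least 1 of 4 contrasts, by group (x axis), with a point for each library and a bar at the mean of 2. Ulk1, Atg2a and Atg9a are low in PA and LA, the other genes are high there, and the points of LA for Atg10 lie far apart.

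None of the 7 genes of the PI3-kinase complex and its regulators was called in the 4 contrasts (edgeR), although 5 or 6 of the 7 had an unadjusted p under 0.05 in each, beside 48.8% to 56.8% of all genes, and DESeq2 also called none. Becn1, the Beclin 1 scaffold, was level, with 40.9 to 49.6 FPKM in all 10 libraries and log2 fold changes of 0.07 with PA and -0.08 with LA. Of the 31-base sequences of Becn1, 40.04% occur in transcripts of other genes, mainly the overlapping Cntd1 on the other strand, and the sources used here do not name the strand setting of the counting. Pik3c3, the VPS34 lipid kinase, gave 0.33 with PA and 0.24 with LA, then -0.46 and -0.41 with NTP. Rubcn encodes Rubicon, an inhibitor of autophagosome maturation, and ran the other way, at -0.38 and -0.38 with the FFAs and 0.30 and 0.40 with NTP. All 8 of those values had an adjusted p under 0.05. The largest value of the other 4 genes (Pik3r4, Atg14, Uvrag and Ambra1) was 0.32, for Atg14 with PA.

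Among the genes of membrane supply, the lipid scramblase gene Atg9a and the lipid transfer gene Atg2a changed in parallel with Ulk1. Atg9a gave 13.1 and 12.9 FPKM in Vehicle, 7.03 and 7.76 in PA, 12.4 and 11.1 in PA+NTP, 7.92 and 7.68 in LA, and 14.3 and 13.7 in LA+NTP. The FFA libraries stood apart from all others. Its log2 fold change was -0.77 ± 0.08 with PA (adjusted p = 4.44e-06), -0.69 ± 0.08 with LA (adjusted p = 1.3e-05), 0.60 ± 0.08 with NTP under PA (adjusted p = 2.85e-05) and 0.80 ± 0.07 with NTP under LA (adjusted p = 1.22e-06). A share of 32.4% of its 31-base sequences lies in other transcripts, mostly of the overlapping model Gm29253, so its reads may be split. Atg2a gave 16.3 and 16.5 FPKM in Vehicle, 10.2 and 10.9 in PA, 17.5 and 15.8 in PA+NTP, 10.2 and 11.1 in LA, and 17.2 and 17.8 in LA+NTP. Again no PA or LA library reached the lowest of the others. The changes were -0.60 ± 0.07 with PA (adjusted p = 1.03e-05), -0.58 with LA, which is 1.49-fold and so not called, 0.60 ± 0.07 with NTP under PA (adjusted p = 9.72e-06) and 0.68 ± 0.07 under LA (adjusted p = 1.72e-06). Without PA replicate 1 the Atg2a change with PA was -0.56, and without PA replicate 1 or PA+NTP replicate 1 the changes with NTP under PA were 0.54 to 0.55 for Atg2a and 0.54 for Atg9a, all short of 1.5-fold. With the GC trend removed, Atg9a stood at -0.41, -0.30, 0.21 and 0.30 and Atg2a at -0.11, -0.06, 0.08 and 0.02, in the order of the contrasts above. Atg2b, the paralog of Atg2a, gave 5.21 to 6.62 FPKM and no value beyond -0.13. The PI3P-binding gene Wipi1 reached -0.47 with PA and -0.31 with LA without a call, while Wipi2, Wdr45 and Vmp1, a scramblase of the endoplasmic reticulum, were not called either.

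Of the 10 conjugation genes, 0 were called higher and 2 lower with NTP under PA, and 0 and 3 under LA. The shares of all genes were 8.74% and 5.11%, and 11.7% and 7.57%. After GC removal the counts were 0 and 2 under PA and 0 and 0 under LA, beside 3.49% and 2.67%, and 3.28% and 2.49%. Atg3 encodes the E2-like enzyme that joins ATG8 proteins to phosphatidylethanolamine. It gave 22.4 and 22.0 FPKM in Vehicle, 32.4 and 34.7 in PA, 19.3 and 20.8 in PA+NTP, 29.4 and 28.3 in LA, and 18.4 and 17.5 in LA+NTP. Every FFA library without NTP was above every other library, and every NTP library was below Vehicle. The log2 fold change was 0.63 ± 0.07 with PA (adjusted p = 1.21e-05), 0.43 ± 0.07 with LA (not called), -0.80 ± 0.07 with NTP under PA (adjusted p = 1.77e-06) and -0.73 ± 0.07 under LA (adjusted p = 1.8e-06). Without PA replicate 2 the value with PA was 0.58, short of the fold threshold. After GC removal the NTP value under PA was -0.62 and still called, and those of the other contrasts were 0.45, 0.21 and -0.47. Atg10, the E2-like enzyme of the ATG12 to ATG5 conjugate, had the lowest level of the 40. Its FPKM was 2.92 and 2.32 in Vehicle, 3.14 and 3.83 in PA, 1.90 and 1.75 in PA+NTP, 3.95 and 2.38 in LA, and 1.68 and 1.76 in LA+NTP. The LA libraries were far apart, and 1 of them lay inside the Vehicle range. Its change with NTP was -1.01 ± 0.24 under PA, 2.02-fold lower (adjusted p = 0.00335), and -0.93 ± 0.23 under LA (adjusted p = 0.00385). Without PA replicate 2 the former was -0.85 (adjusted p = 0.059), and without LA replicate 1 the latter was -0.50 (adjusted p = 0.121), so each call depends on 1 library. After GC removal these were -0.67 (adjusted p = 0.0497) and -0.46 (adjusted p = 0.149).

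Atg4c, a protease that trims ATG8 proteins and removes them from membranes, gave 5.01 and 5.65 FPKM in Vehicle, 7.04 and 7.05 in PA, 5.59 and 4.93 in PA+NTP, 7.12 and 7.65 in LA, and 4.88 and 4.31 in LA+NTP. The FFA libraries were the highest, and the LA+NTP libraries the lowest, of all. It was called with NTP under LA (-0.71 ± 0.10, adjusted p = 3.83e-05; -0.36 after GC removal) and stood at -0.46 under PA. The family split by direction, since Atg4a gave 0.44 with PA and 0.48 with LA where Atg4b gave -0.20 and -0.20, all at an adjusted p under 0.05 and none called. Atg4a shares 60.8% of its 31-base sequences with other transcripts, mainly the pseudogene Atg4a-ps, so its level is uncertain. Atg4d was not called. Atg5, the core of the E3-like complex, gave 20.3 to 24.4 FPKM in all libraries, with values of 0.21, 0.14, -0.17 and -0.17 in the order PA, LA, NTP under PA and NTP under LA. Atg7, the E1-like enzyme that both conjugation systems need, gave 20.8 and 22.8 FPKM in Vehicle, 16.1 and 19.8 in PA, 19.7 and 21.4 in PA+NTP, 16.3 and 16.8 in LA, and 21.8 and 22.2 in LA+NTP. It was lower in the LA libraries than in any other except 1 of PA, at -0.35 with LA (adjusted p = 0.00531) and 0.37 with NTP under LA (adjusted p = 0.00237), short of 1.5-fold. Atg12, the ubiquitin-like partner of ATG5, gave 0.33 with each FFA and -0.35 and -0.33 with NTP, and Atg16l1, which places the complex on the membrane, did not exceed 0.27.

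The ATG8 family, whose products coat the autophagosome and bind receptors, did not move as a block. Gabarapl2 gave 64.4 and 63.3 FPKM in Vehicle, 82.1 and 91.8 in PA, 50.6 and 54.0 in PA+NTP, 92.6 and 92.4 in LA, and 59.6 and 55.8 in LA+NTP. The FFA libraries were above Vehicle and the NTP libraries below it. Its value with NTP was -0.80 ± 0.07 under PA (adjusted p = 1.83e-06) and -0.72 ± 0.07 under LA (adjusted p = 1.67e-06), and that with LA alone, 0.58, was just short of 1.5-fold. After GC removal the NTP values were -0.64, still called, and -0.50. Pseudogenes such as Gm3724 carry part of the 15.3% of its sequence that is shared. Gabarap was the most abundant ATG8 gene and went the other way, at 304 and 293 FPKM in Vehicle, 214 and 225 in PA, 277 and 312 in PA+NTP, 219 and 220 in LA, and 298 and 334 in LA+NTP. The FFA groups did not overlap with the others, at -0.41 with PA and -0.40 with LA and 0.37 and 0.49 with NTP, and after GC removal the values were -0.34, -0.34, 0.29 and 0.40. Neither fit called Gabarap, but all 8 values had an adjusted p under 0.05.

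Map1lc3b, which encodes LC3B, the usual marker protein of autophagosomes, was at 106 and 104 FPKM in Vehicle, 112 and 124 in PA, 111 and 113 in PA+NTP, 115 and 112 in LA, and 113 and 116 in LA+NTP. The whole range was narrow, and its log2 fold changes were 0.21 with PA (adjusted p = 0.0109), 0.16 with LA, -0.14 with NTP under PA and -0.03 with NTP under LA. Gabarapl1 was flatter still with the FFAs, at 96.7 to 109 FPKM, 0.05 with PA and 0.03 with LA, and 25.2% of its sequence is shared, mainly with an antisense gene. Map1lc3a, encoding LC3A, was at 53.1 and 51.3 FPKM in Vehicle, 37.0 and 36.6 in PA, 43.9 and 42.1 in PA+NTP, 39.1 and 37.7 in LA, and 59.8 and 52.2 in LA+NTP. The groups with an FFA alone were lowest, at -0.47 with PA and -0.39 with LA, and NTP gave 0.17 under PA and 0.50 under LA. Map1lc3a has the highest GC content of the 40 members, 61.7%, and each of these 4 signs turned after GC removal, to 0.09, 0.20, -0.41 and -0.25.

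Of the 5 cargo receptors, 4 were lower and 1 higher with NTP under each FFA at adjusted p alone. The shares of all genes were 23.0% and 21.7% under PA and 25.6% and 25.9% under LA. Under each FFA 2 receptors were called lower, beside 5.11% of all genes under PA and 7.57% under LA. Optn encodes optineurin, a receptor of mitophagy. Its FPKM was 36.3 and 38.5 in Vehicle, 49.8 and 49.3 in PA, 33.7 and 34.0 in PA+NTP, 40.6 and 45.6 in LA, and 30.5 and 28.2 in LA+NTP. Every NTP library was below Vehicle and every FFA library above it. With NTP the log2 fold change was -0.61 ± 0.07 under PA (adjusted p = 1.11e-05) and -0.59 ± 0.07 under LA (adjusted p = 7.06e-06). Optn lies near the middle of the GC range, at 50.2%, and after GC removal gave -0.65 and -0.65, called in both contrasts. Its distance from the fold threshold is small. Without PA+NTP replicate 1 the value under PA was -0.58, and without LA replicate 2 or LA+NTP replicate 2 that under LA was -0.52 or -0.55. Tax1bp1, a receptor that recruits the initiation machinery to cargo, was at 98.8 and 108 FPKM in Vehicle, 137 and 135 in PA, 87.0 and 89.2 in PA+NTP, 139 and 137 in LA, and 86.2 and 87.6 in LA+NTP. As for Optn, every FFA library was above Vehicle and every NTP library below it. Its changes with NTP were -0.68 ± 0.06 under PA (adjusted p = 1.31e-06) and -0.71 ± 0.06 under LA (adjusted p = 4.76e-07), and -0.40 and -0.32 after GC removal.

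Sqstm1, encoding p62, which is both a receptor and a substrate of autophagy and is induced by NRF2, had the highest FPKM of the 40. It gave 1145 and 1119 FPKM in Vehicle, 1465 and 1690 in PA, 1206 and 1438 in PA+NTP, 1109 and 1121 in LA, and 1005 and 974 in LA+NTP. The PA libraries were the highest and the LA libraries did not separate from Vehicle. The log2 fold change was 0.51 ± 0.08 with PA (adjusted p = 0.000226), 1.43-fold and not called, and 0.02 ± 0.08 with LA (adjusted p = 0.847). Without PA replicate 1 the value with PA was 0.61 and passed the threshold, and after GC removal it was 0.74 (adjusted p = 5.8e-05) and passed as well. With NTP it was -0.31 under PA and -0.21 under LA. Nbr1, a receptor that works with p62, gave 0.10 and 0.24 with the FFAs and -0.29 and -0.34 with NTP. Calcoco1 was the exception among the receptors, at -0.41 and -0.34 with the FFAs and 0.26 and 0.43 with NTP. Stx17, the SNARE by which the closed autophagosome fuses with the lysosome, was at 6.58 to 7.34 FPKM and was not called in any contrast.

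With NTP the median of the members was near Vehicle, at a log2 fold change of -0.09 in PA+NTP and 0.005 in LA+NTP. The largest departure was that of Atg10, at -0.54 and -0.58, neither with an adjusted p under 0.05. Its NTP libraries (1.68 to 1.90 FPKM) were all below its Vehicle libraries (2.92 and 2.32). In PA+NTP against Vehicle, edgeR called 0 members higher and 0 lower (1.21% and 1.64% of all genes), DESeq2 called 0, and 14 had an unadjusted p under 0.05 (24.7% of all genes). At adjusted p alone 6 members were lower and 0 higher (5.61% and 4.5%). They were Wipi1 (-0.36 ± 0.07, adjusted p = 0.00653), Gabarapl2 (-0.31), Map1lc3a (-0.30), Tax1bp1 (-0.25), Rb1cc1 (-0.23) and Nbr1 (-0.19). In LA+NTP against Vehicle, edgeR called 0 in each direction (0.0567% and 0.0355%), DESeq2 called 0, 11 had an unadjusted p under 0.05 (14.3% of all genes) and 0 passed the adjusted p (0.192% higher and 0.0922% lower among all genes). The lowest adjusted p there was that of Optn, at -0.35 ± 0.07 (adjusted p = 0.0545). A miss of the threshold does not show equal levels.

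The FFAs were also compared directly. In LA against PA, edgeR called 0 members higher and 0 lower (2.04% and 1.18%), DESeq2 called 0, and 6 had an unadjusted p under 0.05 (24.8% of all genes). At adjusted p alone Ulk2 (0.53 ± 0.08, adjusted p = 0.000681) and Ulk1 (0.27 ± 0.08, adjusted p = 0.0446) were higher with LA, and Sqstm1 (-0.49 ± 0.08, adjusted p = 0.00221) was lower, beside 5.54% and 5.59% of all genes. The concentrations differed (200 and 12 μM), so these values compare the treatments as given and not the fatty acids at a matched dose. The effects of NTP under LA and PA differed for 0 members by edgeR (0.0% of all genes in each direction) and 0 by DESeq2, and 3 had an unadjusted p under 0.05, beside 7.30% of all genes.

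Genes around the machinery were read from 3 wider lists. Of 26 other autophagy factors tested, 2 were called higher and 1 lower with PA, 1 and 1 with LA, 2 and 1 with NTP under PA, and 2 and 1 with NTP under LA. The shares over all genes, in the same order, were 6.0% and 8.92%, 3.53% and 7.11%, 8.74% and 5.11%, and 11.7% and 7.57%, so the counts of this list lie near or below them. Trp53inp1, whose product binds LC3, was called in all 4, at 0.59, 0.66, -0.63 and -0.68. It gave 71.7 and 71.8 FPKM in Vehicle, 105 and 106 in PA, 72.2 and 69.8 in PA+NTP, 112 and 107 in LA, and 68.8 and 71.8 in LA+NTP. With the GC trend removed it was called in none, at 0.17, 0.21, -0.22 and -0.16. Its homolog Trp53inp2 was called lower with PA in both fits (-0.87, and -0.71 after GC removal). Retreg1, a receptor for autophagy of the endoplasmic reticulum, was called higher with PA (0.74), but not after GC removal. Atg9b, the paralog of Atg9a, was below 1 FPKM in all libraries. It gave 0.34 and 0.36 FPKM in Vehicle, 0.29 and 0.31 in PA, 0.74 and 0.45 in PA+NTP, 0.09 and 0.14 in LA, and 0.28 and 0.37 in LA+NTP. It had the lowest value of the list with LA, -1.56, and the highest with NTP under LA, 1.48. Both rest on few counts (12 to 90 in a library).

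Of 30 genes of AMPK and mTORC1 control, 1 was called higher and 0 lower with PA, 0 and 1 with LA, 4 and 2 with NTP under PA, and 2 and 1 with NTP under LA, beside 6.0% and 8.92%, 3.53% and 7.11%, 8.74% and 5.11%, and 11.7% and 7.57% of all genes. Fnip1, whose product binds folliculin and AMPK, was higher with PA (0.72) and lower with NTP (-0.59 and -0.75). Akt1s1, encoding the mTORC1 inhibitor PRAS40, was lower with LA (-0.67) and higher with NTP (0.71 and 0.94), and Mlst8, a subunit of mTORC1, was higher with NTP (0.63 and 0.72). None of these calls remained after GC removal. In that fit 0 genes of the list were called higher and 2 lower with PA, beside 3.82% and 4.66% of all genes. With LA and in both NTP contrasts it called 0 in each direction. Prkaa1 and Prkaa2, the catalytic subunits of AMPK, were not called in these contrasts.

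The last list held transcription factors and cofactors of autophagy genes. Of 14 tested, 0 were called higher and 3 lower with PA, 0 and 2 with LA, 3 and 0 with NTP under PA, and 3 and 1 (Mitf, at -0.60) with NTP under LA, beside the same shares of all genes as for the lists above. Tfeb, the master regulator of lysosome and autophagy genes, gave 2.52 and 2.61 FPKM in Vehicle, 1.39 and 1.37 in PA, 2.80 and 2.13 in PA+NTP, 2.08 and 1.25 in LA, and 3.75 and 2.78 in LA+NTP. All libraries with an FFA alone were below all others, although those of LA were far apart. Its values were -0.88 with PA, -0.56 with LA (not called), 0.79 with NTP under PA and 0.90 under LA, and -0.33, 0.22 and 0.14 after GC removal for the 3 that were called. Foxo3 was called in all 4 (-0.71, -0.65, 0.71 and 0.74) and in none after GC removal. Crebbp, an acetyltransferase, gave -0.69, -0.74, 0.73 and 0.79, and its value with PA after GC removal, -0.57, was not called while the other 3 were.

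Markers of hepatocytes and of other cells differed between the same groups. The summed hepatocyte markers were 3279 to 3487 FPKM in Vehicle, 2298 to 2528 in PA, 2780 to 3118 in PA+NTP, 3308 to 3367 in LA and 3925 to 4174 in LA+NTP. The 6 markers of Kupffer cells or macrophages summed to 205 to 206 FPKM in Vehicle, 201 to 237 in PA, 265 to 295 in PA+NTP, 124 to 128 in LA and 179 to 193 in LA+NTP. Nearly all of each of these macrophage sums was Cd68. With PA, 4 of the 7 hepatocyte markers were called lower (Apoa1 at -1.32, Ttr at -0.94, Hnf4a at -0.73 and Serpina1a at -0.73) and 2 of the 6 macrophage markers higher (Marco at 2.46 and Ptprc at 0.69). The shares of all genes were 8.92% lower and 6.0% higher. Clec4f, a macrophage marker at no more than 0.29 FPKM, went the other way, at -1.90, and was not called (adjusted p = 0.0566 by edgeR). Also called lower with PA were 4 of the 5 stellate cell markers (Lrat at -1.10, Col1a1 at -0.93, Pdgfrb at -0.74 and Reln at -0.62) and 1 of the 4 cholangiocyte markers (Krt19 at -1.22). After GC removal, Apoa1, Ttr, Serpina1a, Marco and Lrat remained called with PA. Hnf4a, Ptprc, Col1a1, Pdgfrb, Reln and Krt19 did not. With LA, Cd68 (-0.67) and Col1a1 (-0.74) were called lower, beside 7.11% of all genes, and neither was called after GC removal. With NTP, Col1a1 (0.72), Pdgfrb (0.78) and the cholangiocyte marker Sox9 (0.66) were called higher under PA, and Col1a1 (0.84), the stellate marker Des (0.73) and Apoa1 (0.65) under LA. The shares of all genes called higher were 8.74% and 11.7%. After GC removal, Col1a1 (0.26) and Pdgfrb (0.53) were no longer called under PA. No endothelial marker was called in these 4 contrasts. Their part in the values of the autophagy genes was not tested.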

How the data were processed

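RNA from 10 libraries of 5 groups was analysed. The authors aligned reads with HISAT and Bowtie2 (build mm10 in the processing notes, versions not given) and used RSEM to quantify genes. The values deposited per gene and library are the RSEM expected count, which is not normalized, and the FPKM, which the authors scaled for length and library size. The tables list 15211 to 16318 genes, with FPKM from 0.01 upward, and an unlisted gene was taken as 0.

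Expected counts were rounded and fitted in edgeR 4.0.16 (R 4.3.3) with group as the factor, TMM factors (0.977 to 1.037) and filterByExpr, which left 14097 genes and dropped 3958. The common coefficient of variation was 0.0682. An exact two-sided permutation test of 1 gene cannot go below p = 0.333 with 2 libraries against 2. On simulated counts for PA against Vehicle (13862 genes), 188 of 200 planted 2-fold changes (94%) were recovered with 2 false calls. All genes were simulated at the common dispersion and without a GC trend, so these figures check the code and do not give the rate of false calls in these data. GC content came from GENCODE M21 transcripts for 98.4% of genes and 40 of 40 members, and the GC trend was a loess curve (span 0.4) per library, used as an offset. Shared sequence is the share of 31-base sequences found in transcripts of other GENCODE M21 genes. Alternatives were DESeq2 1.42.0, library-size scaling, other filters, limma 3.58.1 on log2(FPKM + 1) and log2(FPKM + 0.1), fits of only the groups compared, a replicate block, removal of a length or GC trend, thinning to 13142555 counts, the NOISeq rule at 0.95 and leaving out each library. Replicate numbers are those of the sample titles; the deposited tables carry partly other numbers. The values of replicate tables were checked, and no table repeated another (chi-square per gene of 3.81 to 16.4). All 40 members were named by role. Those called in a contrast of an FFA with Vehicle or of NTP with its FFA are given by library. So are Atg7, Sqstm1, Gabarap, Map1lc3a and Map1lc3b, while Becn1, Atg5 and Gabarapl1 are given as ranges. The members, lists and tests were chosen with earlier results of these data known. A single gene, of the list of transcription factors and cofactors, is left out here.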

Additional observations from a re-analysis of the deposited data

Results flagged for a closer look

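The direct contrast of LA with PA passed the adjusted p, without the 1.5-fold threshold, for 3 members (edgeR's quasi-likelihood test). Of these, 2 were higher and 1 lower, beside 5.54% and 5.59% of all genes, so the counts are not above the shares of all genes. Sqstm1 was lower with LA than with PA, at a log2 difference of -0.49. Ulk2 was higher, at 0.53, and Ulk1 was higher, at 0.27. Each of these is a test of the difference between the FFA groups. The LA and PA libraries of Sqstm1, Ulk1 and Ulk2 did not overlap, but the same held for 26 of the 40 members. The share over all genes without overlap is not given here.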

How the results depend on the processing

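Counts are given as higher/lower members in the order PA, LA, NTP under PA and NTP under LA, which were 1/3, 0/2, 3/5 and 3/7 as reported. DESeq2, no filter, fits of only the groups compared and the replicate block gave nearly these counts, and the block kept all 24 calls. The replicate block with the GC trend removed gave 2/0, 1/0, 0/4 and 0/1, as did GC removal alone, and 5 of 24 calls remained. Same-numbered libraries of different groups did not deviate together throughout (correlations of -0.0994 to 0.133). These correlations cannot decide whether libraries of different groups were paired, because they rest on 1 of 2 numberings. The numbers are those of the sample titles, which differ in every group from those the deposited tables carry for at least 1 library, and a block by the latter was not run. Adjusted p alone gave 16/12, 11/12, 8/16 and 13/15, and also 6 lower in PA+NTP against Vehicle and 2 higher and 1 lower in LA against PA. Limma on log2(FPKM + 1) gave 0 higher with PA, thinning 0 higher with PA and 1 higher with LA, and length removal 1 higher with LA and 1 higher with NTP under PA. The NOISeq rule, as rebuilt here, gave 0 in all of them, with no share of all genes to set beside it. No called result changed sign under any of these. Under library-size scaling 22 of 24 calls remained, and calls over all genes with NTP under PA were 1492 higher and 518 lower, against 1232 and 721. Leaving out 1 library gave 0 to 2 higher and 2 to 3 lower with PA, 0 to 2 and 2 to 3 with LA, 1 to 3 and 5 to 5 with NTP under PA, 3 to 4 and 6 to 7 with NTP under LA, and 0 to 1 higher in LA against PA. With 2 libraries a group, a difference short of the threshold may be real.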
